A study of Mus musculus with 2 samples.

Results

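Il4i1, the enzymes that break down tryptophan, and the aryl hydrocarbon receptor (AHR) with its best-known targets were read in untreated and IL-4-treated bone marrow-derived macrophages (BMDMs). The 10 genes were Il4i1, Ido1, Ido2, Kynu, Kmo, Ahr, Ahrr, Cyp1a1, Cyp1b1 and Tiparp, out of 20656 genes with a RefSeq symbol on the array. They were chosen by their measured differences between IL-4-treated and untreated BMDMs on these same arrays, together with their place in the pathway, so the differences below are descriptions and carry no test. The choice used no threshold. All probes whose RefSeq accession belongs to 1 of the 10 genes were kept, which gave 15 probes of 39424. Each of the 15 was printed in 1 spot, and 5 of the genes had 2 probes each.

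BMDMs are macrophages grown from bone marrow cells with M-CSF, and the Th2 cytokine IL-4 polarises them to the M2 type. The donors were male mice aged 8 weeks with floxed Crif1 alleles (Crif1 f/f), and the methods name no Cre for these samples. One condition was untreated and the other was IL-4 for 18 h, with 1 single-colour (Cy3) array per condition and no replicate. The comparison asks which transcripts, secreted factors among them, differ in macrophages given IL-4. The IL-4 dose used for the arrays and whether both cultures came from the same animal are not given in the sources used here.

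IL4I1 is a secreted L-amino acid oxidase that turns phenylalanine, tyrosine and tryptophan into their keto acids. IDO1 and IDO2 open another route, in which tryptophan becomes kynurenine, and KMO and KYNU carry kynurenine further toward NAD. Products of both routes, among them indole-3-pyruvate, its derivatives and kynurenic acid, can bind AHR, a transcription factor that waits in the cytoplasm with chaperones and acts in the nucleus as a dimer with ARNT. Cyp1a1, Cyp1b1, Tiparp and Ahrr are target genes of AHR, and the last of these encodes a repressor that feeds back on it.

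The intensities given are the software's background-subtracted signal of each spot, and a log2 difference is always IL-4-treated minus untreated, with each array first set relative to its own 75th percentile. A spot was read as present when the software flagged it as well above background, which held for 59.8% of the gene spots in untreated BMDMs and 57.4% after IL-4. With the flag on 1 array alone the difference is given as a bound, and with the flag on neither no fold is given. Where an unflagged signal exceeded the dimmest flagged one of its array, the probe's own difference is given in place of a bound. The error beside a difference is the SD between spots, taken from probes of like signal printed in 10 spots. Variation from culture to culture is not part of it. Both arrays lay on 1 slide and were scanned together. The number of arrays limits the precision. Signals of different genes were not compared as amounts of RNA, and in the marker sums below the brightest probe weighs most. Of 7 macrophage markers 6 had a probe, and all 6 were well above background in both conditions. At their brightest probes the median log2 difference was -0.71. The 3 probes of Itgam ran from -0.71 to -0.24, and the 3 of Csf1r from -0.11 to 0.09. Fcgr1 at -1.23 and Mertk at -1.14 were at least 2-fold lower, and Csf1r at 0.09 and Adgre1 at 0.17 were the highest. All 5 fibroblast markers were above background in both conditions too, with a summed intensity of 324009 without and 317060 with IL-4. Of these sums Col1a2 gave 233342 and 234332. The 5 neutrophil markers on the array were also present, with sums of 4007 and 3148. Of 6 eosinophil, basophil and mast cell markers, Epx and Fcer1a were above background in neither condition. The sums were 1127 and 1058, of which Siglecf gave 772 and 817. In that list Cpa3, a mast cell protease, was at least 3.51-fold lower after IL-4, and Mcpt8, a basophil protease, had a log2 difference of -0.74. The paper reports that nearly all cells of its BMDM cultures carried macrophage surface proteins by flow cytometry. What part any of these other cells had in the results was not tested.

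The data show 1 large difference in this axis, at its secreted oxidase. Untreated BMDMs gave Il4i1 an intensity of 165 (software error 17.5), and IL-4-treated BMDMs 11634 (software error 1163). The spot was well above background and not saturated on both arrays. After IL-4 the signal was 65.9-fold higher, a log2 difference of 6.04 with a spot SD of 0.098. Il4i1 was the only one of the 6 genes with a difference that passed 2-fold, and none was 2-fold lower. Of 19743 genes and unnamed transcripts with a difference, 2.86% were higher by that much or more and 4.47% lower. The split between both directions moved with the scaling, from 564 higher and 883 lower here to 827 and 564 with median scaling, 803 and 533 with quantile normalization, 693 and 632 with cyclic loess, and 1024 and 451 with spike-in scaling. Normexp gave 295 and 266. In a culture measured as bulk RNA, fewer cells expressing a gene and less RNA per cell cannot be told apart. Lymphocytes and dendritic cells can also express Il4i1. Of 5 lymphocyte markers, Cd3g, Cd79a and Ms4a1 were above background in neither condition, Ncr1 was so in untreated BMDMs alone, and Cd3e had a log2 difference of -0.31. Their summed intensity was 421 without and 329 with IL-4. Of 6 dendritic cell markers, Flt3, Xcr1 and Clec9a were above background in neither condition. Zbtb46 had -0.52, Ccr7 -0.09 and Siglech 0.02, with spot SDs of 0.30, 0.30 and 0.064. The sum of the dendritic cell markers was 29203 without and 31772 with IL-4, nearly all of it Siglech.

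**Figure D1:**
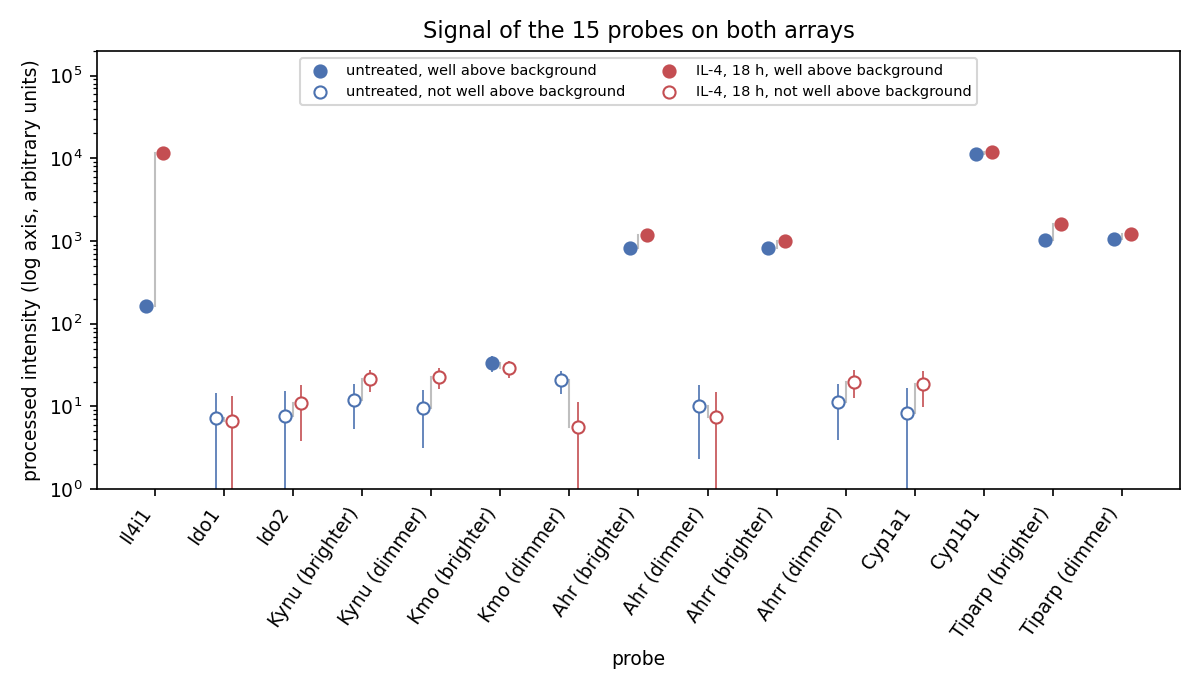
Processed intensity (log axis, arbitrary units) of the 15 probes in untreated (blue) and IL-4-treated (red) BMDMs, with the error estimated by the scanner software as bars, which run off the axis where the error is as large as the signal. Filled points are well above background and open points are not. Il4i1 went from 165 to 11634, Cyp1b1 went from 11181 to 11829, and the probes of Ido1, Ido2, Kynu and Cyp1a1 are open points on both arrays.

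Among the 12744 named genes well above background on both arrays, Il4i1 had the second-highest difference. The gene above it was Arg1, the arginase that marks M2 macrophages, with a log2 difference of 7.76. The 3 genes below it were Ccl24, an eosinophil-attracting chemokine, at 4.90, Cish, a feedback inhibitor of cytokine signalling, at 4.66, and Scimp, a transmembrane adaptor, at 4.59. Il4i1 lay 1.71 log2 units below Arg1 (spot SD of the gap 0.18) and 1.14 above Ccl24 (0.24), so both gaps exceeded the spot error. Across 8 ways of scaling or background-correcting the arrays, the difference of Il4i1 lay between 5.51 and 6.37.

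**Figure D2:**
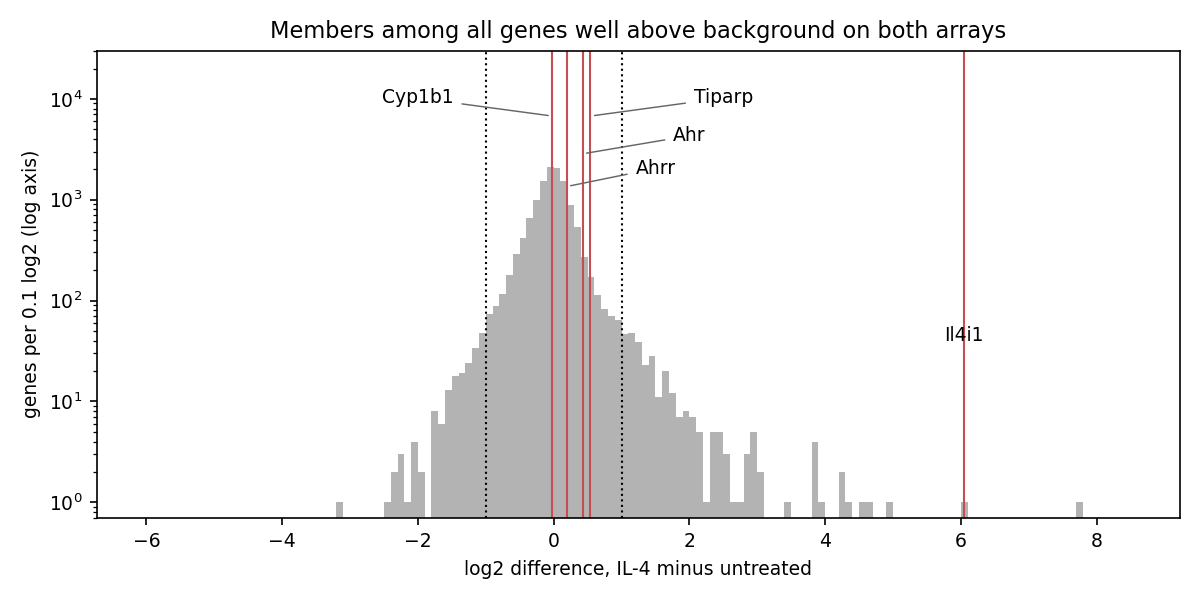
Number of genes (log axis) by log2 difference, IL-4-treated minus untreated, in bins of 0.1 for the 12744 named genes well above background on both arrays, with red lines at the members present on both arrays and dotted lines at 2-fold. Cyp1b1, Ahrr, Ahr and Tiparp lie within the 2-fold lines, and Il4i1 lies at 6.04, beyond all genes but Arg1.

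The RefSeq promoter of Il4i1 is shown because this gene carried the largest difference of the axis. The bases are the 250 before the transcript start, on GRCm38.p6 at chr7:44836038-44836287 (+ strand), from 5' to 3'. In this window and the 50 bases after the start, none of the letters searched on both strands was found. These were GCGTG, the core bound by the AHR dimer, TTC and GAA with 4 free bases between, the spacing preferred by STAT6, TTC and GAA with 3 free bases between, the spacing of other STAT sites, and GAAA repeated after 2 free bases, as in interferon response elements. Of 32851 RefSeq windows of 300 bases, 32.4% held the AHR core, 6.95% the STAT6 spacing, 8.30% the other STAT spacing and 3.44% the interferon letters. A missing match says only that these letters are not in this window.
Il4i1: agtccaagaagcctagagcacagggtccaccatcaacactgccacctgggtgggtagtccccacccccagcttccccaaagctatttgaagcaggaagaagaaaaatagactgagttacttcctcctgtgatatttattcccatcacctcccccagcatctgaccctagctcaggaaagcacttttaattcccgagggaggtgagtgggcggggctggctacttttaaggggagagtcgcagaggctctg

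The kynurenine enzyme genes Ido1, Ido2, Kynu and Kmo gave little or no signal in either condition. Ido1, which encodes the dioxygenase that starts the route in macrophages and dendritic cells, read 7.21 without IL-4 and 6.68 with it, with software errors of 7.18 and 6.64. Before background subtraction its median pixel intensity was 58.5 and 57, and of 153 negative control spots 50 and 70 were brighter. The probe of Ido1 lay within the range of the control spots on both arrays. Its paralogue Ido2 had intensities of 7.70 and 11.1, and 13 negative controls were brighter than its spot on each array. No fold is given for either gene. The negative controls had a median pixel intensity of 57 in each condition.

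Kynureninase, encoded by Kynu, cleaves kynurenine and 3-hydroxykynurenine. Its brighter probe read 11.9 without IL-4 and 21.2 with it, and its dimmer probe 9.55 and 22.7. Neither reached the flag on either array. Both spots were nevertheless brighter after IL-4 before any correction, with median pixel intensities of 80 and 92 for one and 75 and 91 for the other. With IL-4 no negative control was brighter than them, while without it 1 and 4 controls were. The median local background of the gene spots was 25 without and 31 with IL-4. Kynu has no fold for want of the flag, and a difference was not detectable by that criterion.

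Kmo, the monooxygenase that makes 3-hydroxykynurenine, was the one kynurenine enzyme of the 10 genes with a spot above background. Its brighter probe had intensities of 33.2 and 29.0 and was well above background in untreated BMDMs only. The log2 difference was -0.29, or 1.23-fold lower after IL-4, which is within the spot SD of 0.34. The signal with IL-4 exceeded the dimmest flagged one of that array, so this is the probe's own difference and not a limit. It was -0.08 with median scaling. Under quantile normalization and spike-in scaling it was not below 0, and a gene flagged in untreated BMDMs only was then given no value. The dimmer probe of Kmo had 20.6 and 5.71 and was well above background on neither array. Its median pixel intensity went from 90, above all negative controls, to 62, with 37 of the 153 controls brighter. Both probes were thus dimmer after IL-4. The lowest intensity flagged as well above background anywhere on the arrays was 29.2 without IL-4 and 27.9 with it.

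**Figure D3:**
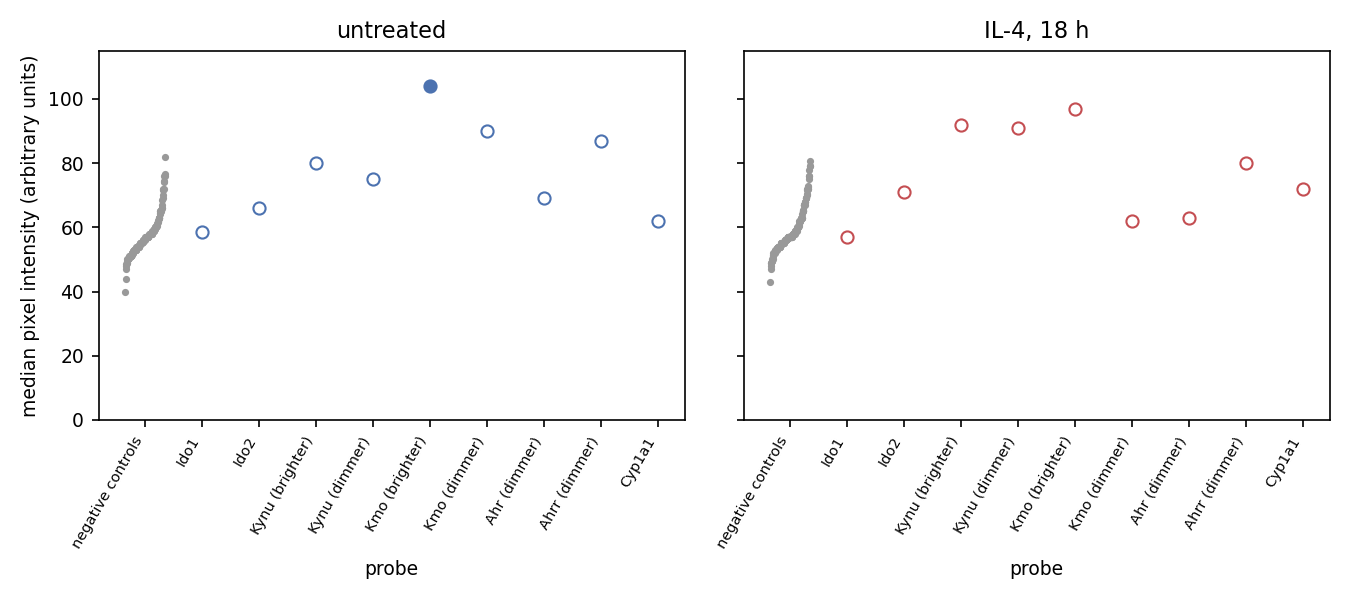
Median pixel intensity before background subtraction (arbitrary units) of the 153 negative control spots (grey) and of the member probes not well above background on at least 1 array, in untreated (left) and IL-4-treated (right) BMDMs. Filled points are well above background. The probe of Ido1 lies among the controls on both arrays, and those of Kynu lie above all controls only after IL-4.

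Ahr, the receptor itself, was present in both conditions and 1.34-fold higher after IL-4. Its brighter probe read 820 without IL-4 and 1180 with it, with software errors of 82.3 and 118. The log2 difference was 0.43 with a spot SD of 0.079. Of the named genes on both arrays, 7.70% had a difference at least as high. The second probe of Ahr gave 10.2 and 7.52, was well above background on neither array and has no fold. Only 1 of its 2 probes therefore measured Ahr.

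Ahrr, the repressor that competes with AHR for ARNT, read 828 without IL-4 and 1012 with it at its brighter probe. The software errors were 83.0 and 101. The log2 difference was 0.19 with a spot SD of 0.079, and 20.5% of the named genes were at least as high. Its second probe, at 11.3 and 20.0, was well above background on neither array. The difference of Ahrr was larger than the spot error and far from 2-fold.

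Tiparp, a mono-ADP-ribosyltransferase that also restrains AHR, was measured on both arrays at both of its probes. The probe with the higher mean signal over both arrays, called the first here, read 1041 without IL-4 and 1624 with it. Its log2 difference was 0.54 with a spot SD of 0.076, and its software errors were 104 and 163. The second was the brighter of both without IL-4, at 1067, and read 1219 with it, a log2 difference of 0.09 with the same spot SD. Its software errors were 107 and 122. Both probes were higher after IL-4 with 75th percentile scaling. Their gap of 0.45 was larger than its spot SD of 0.11, so they disagree on the size by more than spot error. Among 3292 named genes with several probes on both arrays, the median gap was 0.14, and 12.4% had a gap of at least that of Tiparp.

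Of the cytochrome P450 targets, Cyp1a1 was not well above background in either condition and Cyp1b1 was bright in both. Cyp1a1, the classic readout of AHR activity, read 8.30 without IL-4 and 18.5 with it, with software errors of 8.26 and 8.55. Its spot was well above background on neither array, and 26 of the 153 negative controls were brighter than it without IL-4 and 9 with it. No fold is given for Cyp1a1. Cyp1b1, which oxidises steroids and many foreign compounds, had 11181 and 11829. The log2 difference of Cyp1b1 was -0.02 with a spot SD of 0.067, smaller than the spot error, and its sign changed with the scaling, from -0.09 with quantile normalization to 0.31 with spike-in scaling. Foxl2, Cnot6l and Sat1 stood next above it and Ncbp3, Tab1 and Mindy1 next below it in the order of 12744 differences, all at -0.02. Stromal cells also express Cyp1b1. The fibroblast markers had log2 differences between -0.34 (Col1a1) and 0.51 (Pdgfra) with a median of -0.09, and which cells in the culture gave the signal of Cyp1b1 was not tested.

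Of the 8 settings, 5 shift all genes by the same constant, so the members were also read against the median gene. Quantile normalization, cyclic loess and normexp can move genes apart. The median log2 difference of the 17242 genes and unnamed transcripts present in both conditions was -0.01, and it became 0.20 under median scaling and 0.31 under spike-in scaling. Relative to the median of each setting, Tiparp lay 0.53 to 0.63 higher at its first probe and 0.08 to 0.11 higher at its second. Ahr lay 0.34 to 0.44 higher and Ahrr 0.19 to 0.21 higher. Cyp1b1 lay between -0.08 and 0.07. The step from Ahr to Ahrr was 0.24 and that from Ahrr to Cyp1b1 0.21, each larger than its spot SD of 0.11 and 0.10. The step from Tiparp to Ahr, 0.12 with a spot SD of 0.11, was about as large as the spot error, and the second probe of Tiparp at 0.09 lay below Ahr and Ahrr.

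**Figure D4:**
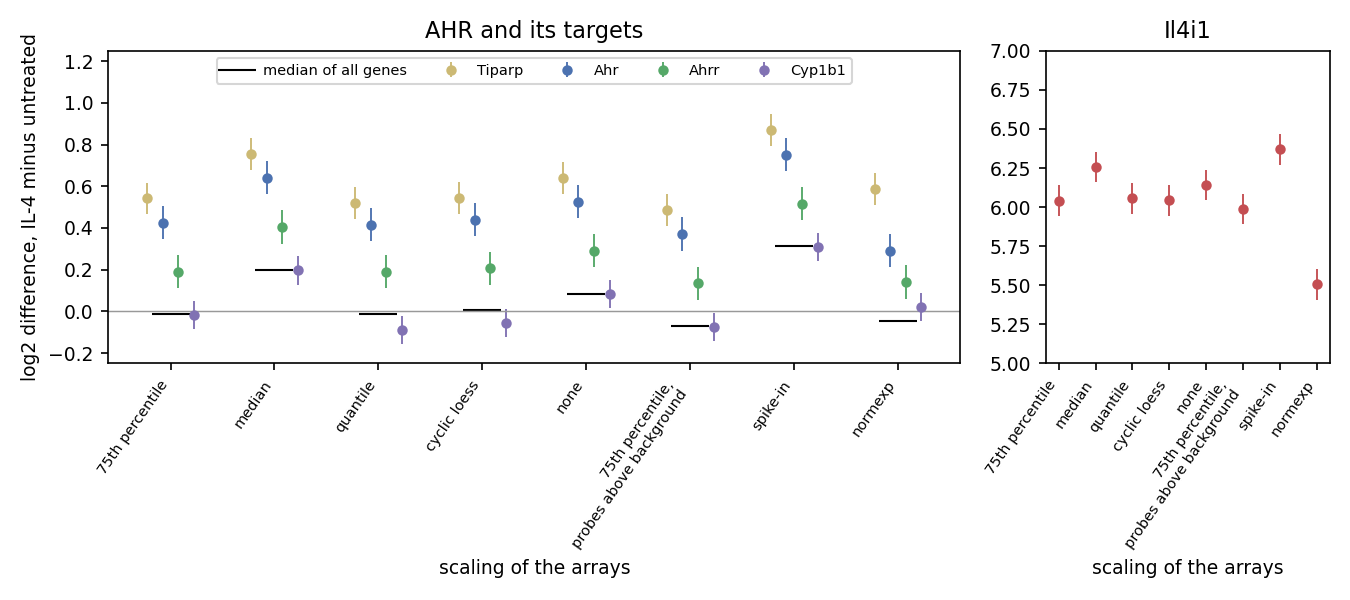
Log2 difference, IL-4-treated minus untreated, of the members present on both arrays (Tiparp at its first probe) under 8 ways of scaling or background-correcting the 2 arrays, with the spot SD as bars and the median of all genes as black dashes. The left panel holds Tiparp, Ahr, Ahrr and Cyp1b1, where Cyp1b1 stays within 0.08 of the median gene. The right panel holds Il4i1 on an axis from 5 to 7.

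The promoters of the 4 AHR targets are shown to set their AHR cores beside their signals. All 4 held GCGTG, or CACGC where the core lies on the other strand, in the 300-base RefSeq window, against 32.4% of all windows. Ahrr held 3 cores, at -107, -82 and -27 from the start, and 3.91% of windows held 3 or more. Cyp1a1 held 1 at -54, Cyp1b1 1 at -76 and Tiparp 1 at -170. The letters of a hypoxia response element core can be the same, so a match names no factor. Whether AHR binds at any of these matches was not tested, and bases farther upstream were not searched. The share of G and C bases differed widely, from 53.6% for Cyp1a1 to 75.2% for Tiparp. None of the 4 windows held the STAT or interferon letters. Kmo had a window with none of the searched letters, and the table listed no window for the other 4 genes. The lines give the 250 bases before the start on GRCm38.p6 from 5' to 3', with the AHR core in capitals. They lie at chr9:57697363-57697612 (+ strand), chr17:79715062-79715311 (- strand), chr13:74292332-74292581 (- strand) and chr3:65528197-65528446 (+ strand).
Cyp1a1: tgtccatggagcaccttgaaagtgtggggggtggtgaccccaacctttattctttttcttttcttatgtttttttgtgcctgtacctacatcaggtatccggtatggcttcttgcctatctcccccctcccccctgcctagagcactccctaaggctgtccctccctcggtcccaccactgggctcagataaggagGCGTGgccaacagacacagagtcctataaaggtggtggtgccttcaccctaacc
Cyp1b1: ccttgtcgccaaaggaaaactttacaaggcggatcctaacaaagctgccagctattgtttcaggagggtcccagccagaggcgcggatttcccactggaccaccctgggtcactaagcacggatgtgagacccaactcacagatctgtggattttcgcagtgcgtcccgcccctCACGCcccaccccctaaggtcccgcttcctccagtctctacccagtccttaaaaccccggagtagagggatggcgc
Ahrr: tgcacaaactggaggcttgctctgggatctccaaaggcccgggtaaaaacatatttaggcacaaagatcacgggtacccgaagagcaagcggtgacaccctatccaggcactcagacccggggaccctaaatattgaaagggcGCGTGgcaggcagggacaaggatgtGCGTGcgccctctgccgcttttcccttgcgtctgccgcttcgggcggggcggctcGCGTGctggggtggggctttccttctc
Tiparp: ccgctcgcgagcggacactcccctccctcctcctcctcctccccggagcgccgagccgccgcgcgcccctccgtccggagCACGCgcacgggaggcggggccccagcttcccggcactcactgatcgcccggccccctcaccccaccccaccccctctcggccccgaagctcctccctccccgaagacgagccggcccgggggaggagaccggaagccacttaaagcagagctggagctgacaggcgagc

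With 1 core each, Cyp1a1 was not above background, Cyp1b1 differed by less than its spot error and Tiparp was 1.46-fold higher at its first probe and 1.07-fold at its second. Ahrr, with 3 cores, was 1.14-fold higher.

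Other genes of the pathway were read from 5 lists of 47 genes, of which 46 had a probe. Of these, 32 had a difference and 14 were well above background on neither array. Serpinb2 alone was at least 2-fold higher, beside 2.86% of all genes. None had a difference or bound of at least 2-fold lower, beside 4.47% of all genes. The bound of Tdo2, 1.76-fold lower, cannot show whether that gene passed 2-fold. The median log2 difference of the 30 present on both arrays was -0.03, and that of all genes was -0.01. In the tryptophan and kynurenine route, 13 of 16 genes had a difference, and the 12 on both arrays lay between -0.26 and 0.39. Slc7a5, the transporter that brings tryptophan and other large neutral amino acids into the cell, had the highest of these. It read 1453 without IL-4 and 2037 with it at the brighter probe, a log2 difference of 0.39 with a spot SD of 0.076, and its dimmer probe gave 0.56. Slc3a2, the heavy chain of that transporter, had 25452 and 29962, a log2 difference of 0.14 with a spot SD of 0.061.

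Afmid, the formamidase that releases kynurenine, had a log2 difference of 0.35 (spot SD 0.13). The kynurenine aminotransferase genes Kyat1 and Kyat3, which lead to kynurenic acid, had -0.03 and -0.06, within their spot SDs of 0.078 and 0.082, and 0.30 and 0.27 with spike-in scaling. On the way to NAD, Haao, the dioxygenase of 3-hydroxyanthranilate, had -0.26 (spot SD 0.18), which was 0.0632 with spike-in scaling. The last steps of NAD synthesis had 0.27 for Nadsyn1 (spot SD 0.080), 0.16 for Nmnat3 (0.076) and -0.04 for Nmnat1 (0.081), the last of which became 0.29 with spike-in scaling. Wars1, the tryptophanyl-tRNA synthetase gene, had 0.04 (spot SD 0.068) and -0.05 with quantile normalization. Tdo2, which encodes the other dioxygenase that opens the route, read 45.8 without IL-4 and 7.97 with it. The flag was set in untreated BMDMs only, and the signal after IL-4 was at least 1.76-fold lower. That bound, a log2 difference of -0.82 (spot SD 0.27), became -0.40 with quantile normalization and -0.49 with spike-in scaling. Without the filter on dim probes, the probe's own difference was -2.62. Qprt, Acmsd and Aadat were well above background on neither array.

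Of 8 partners of AHR, all but Arnt2 were present in both conditions, and these 7 lay between -0.36 and 0.13 at their brightest probes. The 4 probes of Ptges3 ran from 0.06 to 0.49, and the 3 of Ncoa1 from -0.44 to -0.32. Arnt, the dimer partner, read 1403 without IL-4 and 1606 with it, a log2 difference of 0.09 with a spot SD of 0.076, and its dimmer probe gave -0.05. Hsp90ab1 and Hsp90aa1, which encode the chaperone that holds the receptor in the cytoplasm, had 0.13 and 0.11 with spot SDs of 0.063 and 0.070. The coactivator genes Ncoa1 and Ncoa2 had -0.32 and -0.36 with spot SDs of 0.072 and 0.076, though Ncoa1 turned to 0.0034 with spike-in scaling.

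Of 6 further AHR targets present in both conditions, 1 was higher by more than its spot SD and 4 were lower by more than theirs. The median log2 difference of the 6 was -0.14. The 4 included Nfe2l2 at -0.17 and Aldh3a1 at -0.10 (spot SDs 0.070 and 0.082), both above 0 with median and spike-in scaling. Ugt1a6a, flagged in untreated BMDMs only, had -0.68 (spot SD 0.32). Serpinb2, which encodes an inhibitor of plasminogen activators, read 800 without IL-4 and 1944 with it, a log2 difference of 1.18 with a spot SD of 0.079, or 2.27-fold. Ereg, an epidermal growth factor receptor ligand, had 146 and 93.0, a log2 difference of -0.75 with a spot SD of 0.16. Nqo1, the quinone reductase, had 509 and 530, a log2 difference of -0.04 within its spot SD of 0.088, and 0.28 with spike-in scaling. Ugt1a6b, a glucuronosyltransferase, had 10054 and 8142, a log2 difference of -0.40 with a spot SD of 0.071, and the genes of this family share exons, so its probes may also read its relatives. Cyp1a2 was well above background on neither array.

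Among the remaining lists, the amine route had 3 of 7 genes on both arrays. Maob, a monoamine oxidase, had a log2 difference of 0.37 with 75th percentile scaling and -0.02 with normexp. Tph1 and Tph2, the hydroxylases that lead to serotonin, were well above background on neither array. Of 6 other enzymes of amino acid oxidation and aromatic amino acids, only Mif and Tat were present, at 0.04 (spot SD 0.062, and -0.02 with quantile normalization) and -0.30 (spot SD 0.22), the latter 0.025 with spike-in scaling. The D-amino acid oxidase gene Dao, whose product acts on the mirror-image substrates of IL4I1, was well above background on neither array.

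**Figure D5:**
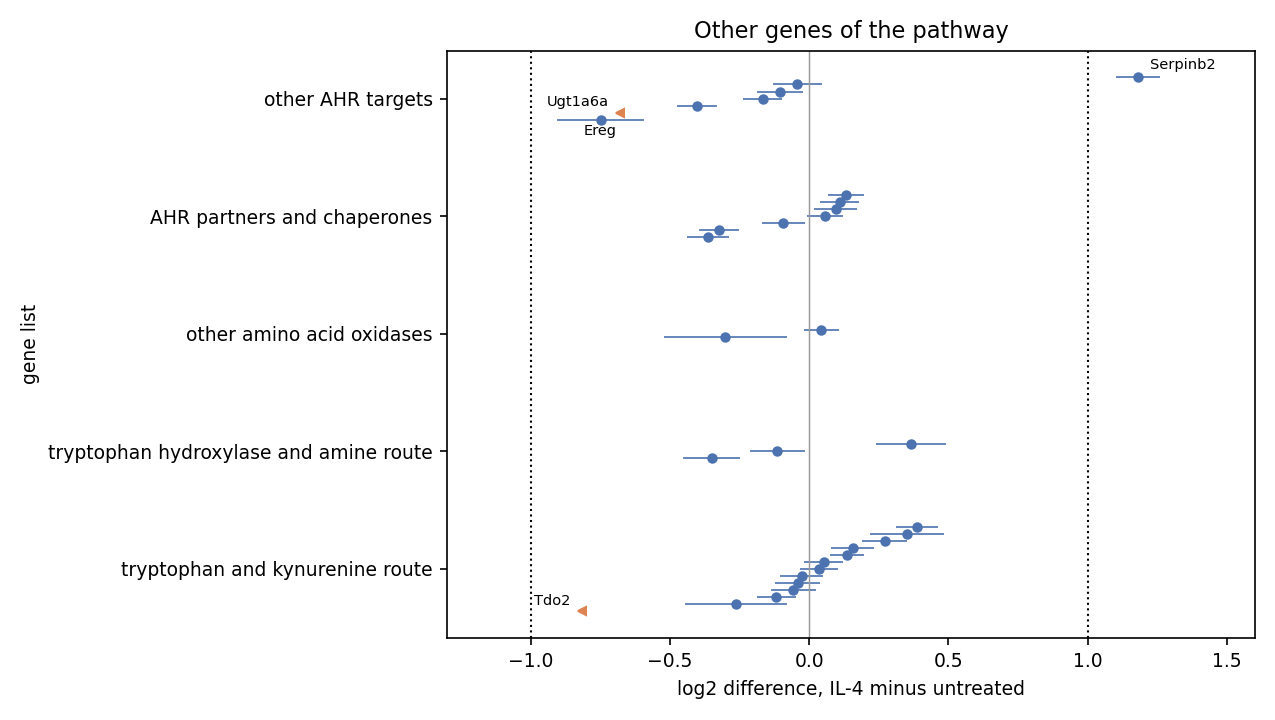
Log2 difference, IL-4-treated minus untreated, of the 32 genes of the 5 pathway lists that had one, each read from its brightest probe. Blue points are genes present on both arrays with the spot SD as bars, and orange triangles are genes present in untreated BMDMs only. The triangles are bounds, except for Ugt1a6a, where the probe's own difference is drawn. Dotted lines mark 2-fold, which Serpinb2 at 1.18 alone passes.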

How the data were processed

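RNA of untreated and IL-4-treated BMDMs (1 sample each, grouped by the sample labels) was hybridised to 1 array per condition. The authors deposited the scanner files written by Feature Extraction 10.10.1.1. Each spot's intensity there has had background and spatial trend removed, without scaling across the arrays. They also deposited processed log2 values whose centring per probe is not stated. In that table the log2 differences of the 15 member probes exceeded those from the scanner by about 0.00056.

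Spots flagged as outliers were left out, spots of a probe were averaged as log2, and each array was shifted by its 75th percentile over 39424 probes. Of these, 27229 matched 20656 RefSeq symbols. The array design was annotated on mm9, so gene coordinates from the RefSeq table (GRCm38.p6) were not used, and promoter positions refer to GRCm38.p6 alone. A gene was read from its brightest probe. The lower bound is set against the probe's own signal or the dimmest flagged signal of that array, whichever is higher. The spot SD combines, for both arrays, the median SD over probes in 10 spots within 1 log2 unit. Genes named are the 10 members, the genes of the pathway and marker lists, and the 3 neighbours on each side of Il4i1 and Cyp1b1 in log2 difference. Members and lists were chosen with earlier results of these data known, and some list genes are not reported here. The calculation was tested on simulated data. The software was limma 3.58.1 in R 4.3.3, with pandas 2.3.3 and numpy 2.4.6 in Python 3.11.15. The alternatives were other scalings, normexp with an offset of 50 on the median pixel intensity, other filters on dim probes, other cutoffs, another rule for several probes, outlier spots kept, and the authors' processed values.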

Additional observations from a re-analysis of the deposited data

How the results depend on the processing

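No paired analysis was possible because the labels give 1 sample per condition. Spot error is all that these arrays measure, and dim signals limit what can be said of Ido1, Ido2, Kynu, Kmo and Cyp1a1. The log2 difference of Il4i1, 6.04, moved to 5.51 with normexp, 6.14 when unscaled, 6.26 under median and 6.37 under spike-in scaling, each by more than its spot SD.

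Without a filter on dim probes, 2 members were at least 2-fold higher in place of 1, the other being Cyp1a1. Of the pathway genes, 2 were higher by that much without the filter and 0 at a 3-fold cutoff, in place of 1. In place of 0 lower, there were 5 without the filter, 3 at a 1.5-fold cutoff and 1 in the authors' processed values.

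Over all genes, the count of 564 higher became 1389 without the filter, 363 with both conditions flagged, 1024 under spike-in scaling, 295 with normexp, 848 in the processed values, 1206 at a 1.5-fold cutoff and 206 at a 3-fold cutoff. The count of 883 lower became 4075 and 270 under those filters, 451 under spike-in scaling, 564 under median scaling, 533 after quantile normalization, 266 with normexp, 1645 in the processed values, and 2164 and 261 at the cutoffs. Filters and cutoffs change counts by construction. The processed values were read without bounds on dim probes, so that Tdo2 had its own difference of -2.62 there. Median and spike-in scaling shift every gene by a constant, 0.21 and 0.33. For the remaining settings the cause was not tested.

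Of 37 single genes besides Il4i1, 34 had a value in each of the 12 alternatives, and 16 of these kept their sign. Kmo, Tdo2 and Ugt1a6a lacked a value in some and are not in these counts. For Kmo these include quantile normalization and spike-in scaling, where its difference was not below 0 and was left blank. Another 9 changed sign from a difference within their spot SD, namely Cyp1b1, Got2, Kyat1, Kyat3, Mif, Nmnat1, Nqo1, Ptges3 and Wars1. Of these, spike-in scaling turned Kyat1 to 0.30, Kyat3 to 0.27, Nmnat1 to 0.29, Nqo1 to 0.28 and Cyp1b1 to 0.31. The other 9 had differed by more than their spot SD. Spike-in scaling turned Haao to 0.0632, Slc7a8 to 0.21, Maoa to 0.21, Tat to 0.025, Cul4b to 0.23, Ncoa1 to 0.0034, Aldh3a1 to 0.22 and Nfe2l2 to 0.16. Median scaling turned Slc7a8 to 0.10, Maoa to 0.10, Cul4b to 0.12, Aldh3a1 to 0.11 and Nfe2l2 to 0.0473. Without scaling Cul4b was 0.0071, and with normexp Maob was -0.0193. Tiparp was 0.32 with the median over its probes.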
